A study of Rattus norvegicus with 6 samples.

Results

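Nucleoporins build the nuclear pore, and importins and exportins carry cargo through it. The members were taken by gene symbol alone. The rows of the deposited count table that begin with Nup and a number form the pore class, and those that begin with Kpna or Kpnb, or with Ipo or Xpo and a number, form the transport receptor class. The rule found 42 of 18631 genes, 22 of the pore and 20 receptors. After the filter on low counts 40 were tested, 21 of the pore and 19 receptors. Nup62cl, with 1 and 2 counts in Scr control libraries 1 and 2 and 0 counts elsewhere, and Kpna7, with 1 count in MIAT knockdown library 1 alone, were not.

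The cells were smooth muscle cells of rat vessels grown in culture, which in the artery or vein wall contract and set the calibre, and polyadenylated RNA was sequenced in 6 libraries. The 3 libraries of the MIAT knockdown group were treated with small interfering RNAs and antisense oligonucleotides, 50 nM in all, for 72 h, to lower the long noncoding RNA MIAT. The 3 libraries of the Scr control group carry a WT genotype label and the same treatment text, and the labels do not say what these cells received. The rat strain, the donor animals and the passage are not named in the labels. Miat was not analysed here, and no depth of the knockdown can be given.

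The nuclear pore is a ring of stacked protein complexes that spans the nuclear envelope. The Y complex and the inner ring form its scaffold, the central channel is filled by nucleoporins with phenylalanine-glycine repeats that form the transport barrier, and filaments extend into the cytoplasm and into a nuclear basket. Importins bind cargo with a nuclear localization signal in the cytoplasm and exportins bind cargo with an export signal in the nucleus, and the small GTPase Ran, loaded with GTP inside the nucleus, sets the direction. In dividing cells the pores come apart at mitosis and are rebuilt afterwards, and importins and Ran also act on the mitotic spindle.

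Total counts lay between 17793811 and 20121161 per library. Smooth muscle markers were abundant, with 7 marker genes summing to 5261 to 7651 CPM (a count relative to its library total after TMM scaling, a correction for library composition) in MIAT knockdown and 5946 to 7622 CPM in Scr control libraries. The 6 endothelial markers summed to 4.62 to 5.25 against 5.83 to 9.85 CPM and the 6 macrophage markers to 22.2 to 26.5 against 21.6 to 34.8 CPM, and Ptprc, the pan-leukocyte marker, had 1 count in all. The 5 fibroblast markers, chiefly Pdgfra, summed to 278 to 494 CPM in MIAT knockdown and 424 to 757 CPM in Scr control. Here and below, rose and fell mean an adjusted p under 0.05 in edgeR's quasi-likelihood test with the replicate number as a block, a fit in which 10.5% of all genes rose and 11.1% fell. Markers of cycling cells moved with the groups. Of these 8, 7 rose and 0 fell with the block, their median log2 fold change was 0.38, and their sum was 530.4 to 627 CPM in MIAT knockdown and 419 to 514 CPM in Scr control. Without the block 0 of the 8 passed, and 5 had an unadjusted p under 0.05. Of the 7 smooth muscle markers 0 rose and 2 fell, Myh11 0.70-fold (adjusted p = 0.0162) and Lmod1 0.81-fold (adjusted p = 0.0372), with a median log2 fold change of -0.25. Of the 4 tested fibroblast markers 0 rose and 2 fell, Pdgfra 0.67-fold (adjusted p = 0.00129) and Dpt 0.65-fold (adjusted p = 0.0290). Of the 4 tested endothelial markers Kdr fell, 0.49-fold (adjusted p = 0.0148), and of the 4 tested macrophage markers 0 rose and 0 fell. Without the block 0 of the smooth muscle, fibroblast, endothelial and macrophage markers passed. The groups did not overlap in Lmod1. They overlapped in Myh11, Pdgfra, Dpt and Kdr, whose falls show within pairs. The part of cycling and of these other markers in the results below was not tested. In bulk RNA, fewer cells that express a gene and less of its RNA per cell cannot be told apart.

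The most abundant members per length were transport receptors. On the FPKM scale (counts divided by the length of the gene and the total of the library), Kpnb1, the importin beta 1 that carries most classical import, led at 136 ± 7.57 FPKM in MIAT knockdown and 121 ± 7.94 FPKM in Scr control (SD, n = 3 each). Ipo5, an importer of ribosomal proteins, followed at 94.9 ± 8.05 and 80.1 ± 10.2 FPKM, and Kpna2, an importin alpha adaptor, at 72.9 ± 7.28 and 51.1 ± 1.74 FPKM. The least abundant tested receptor was Kpna5, at 4.34 ± 0.626 and 3.53 ± 0.463 FPKM. Among the pore genes Nup88, a subunit of the cytoplasmic face, stood highest at 28.1 ± 0.825 and 25.9 ± 1.41 FPKM, ahead of the basket genes Nup153, at 25.6 ± 3.49 and 17.5 ± 1.88 FPKM, and Nup50, at 23.9 ± 0.869 and 17.5 ± 1.08 FPKM. In the MIAT knockdown libraries Nup88 and Nup153 did not differ beyond their spread. Per length, the scaffold genes Nup160 and Nup35 were among the lowest with 4.46 ± 0.755 and 3.36 ± 0.313 FPKM in MIAT knockdown, against 3.51 ± 0.582 and 2.50 ± 0.241 FPKM in Scr control. Their lengths, 11205 and 11398 bases, were the longest of the pore class. By mean CPM they were not scarce, at 48.1 and 36.9 in MIAT knockdown and 40.7 and 29.6 in Scr control. Nup85, higher by FPKM, had 29.6 and 24.0 CPM in MIAT knockdown and Scr control. Nup210, the membrane glycoprotein of the pore, was listed at only 0.470 ± 0.204 and 0.467 ± 0.348 FPKM.

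**Figure D1:**
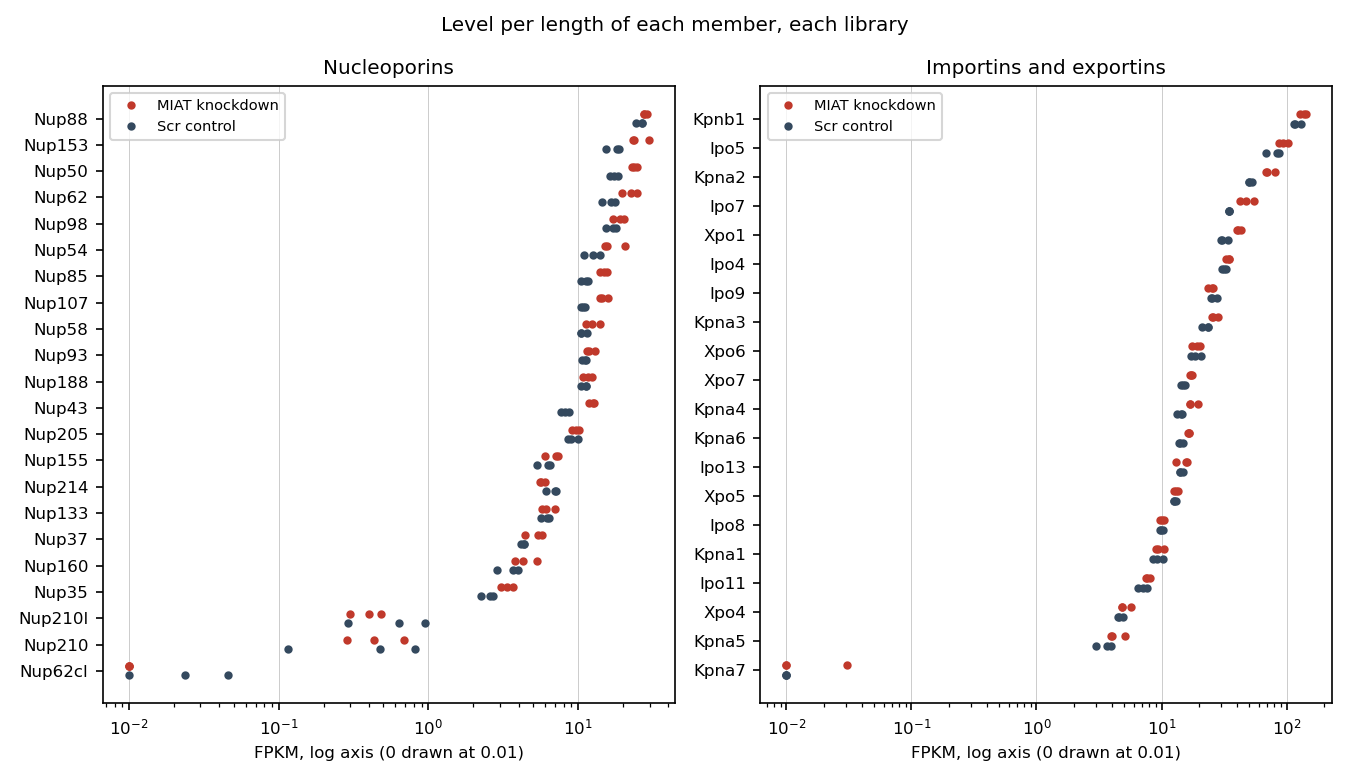
FPKM of every member in each of the 6 libraries on a log axis, MIAT knockdown in red above Scr control in dark grey, ordered by the mean over all libraries, with 0 drawn at 0.01. Kpnb1 is the highest receptor at 136 and 121 FPKM and Nup88 the highest pore gene at 28.1 and 25.9 FPKM; Nup210 and Nup210l lie below 1 FPKM and Nup62cl and Kpna7 are at or near 0.

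The comparison of MIAT knockdown with Scr control asks whether the levels of these genes differed after the knockdown. In edgeR's quasi-likelihood test without the replicate number, 0 of 40 members and 0 of 13423 genes (0%) passed an adjusted p of 0.05. At an unadjusted p under 0.05 there were 9 of 21 pore genes and 4 of 19 receptors, beside 19.2% of all genes. On the same design DESeq2 called 5 pore genes and 2 receptors, beside 5.21% of all genes, and limma-voom called 0. Same-numbered libraries of the groups deviated together, so the replicate number was also fitted as a block. With the block 9 pore genes rose, 1 fell and 11 did not pass, while 4 receptors rose, 0 fell and 15 did not pass. Over all genes 10.5% rose, 11.1% fell and 21.6% passed in either direction. In either direction the share of calls was thus 10 of 21 in the pore, above that background, and 4 of 19 among receptors, near it. By direction, 9 of 21 pore genes and 4 of 19 receptors rose, beside 10.5% of all genes. The members were chosen with earlier results of these data known, so these shares are descriptions and no separate support. The median log2 fold change was 0.10 over the tested pore genes, 0.07 over the tested receptors and -0.01 over all genes tested.

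Every one of the 14 called members moved in the same direction in all 3 pairs and kept its sign under all 23 other settings tried. The 14 were called from these same pairs and counts, so this agreement is no separate support. The calls themselves were less stable: with the block in DESeq2 7 of the 14 passed, and Nup35, Nup43, Nup54, Nup85, Nup107, Nup160 and Kpna4 did not. With a pair left out, 4 passed without pair 1 (Nup153, Nup43, Nup50 and Kpna2). Without pair 2 there were 3 (Nup153, Nup62 and Kpna2), and without pair 3 there were 14. The 14 were picked by a call, so their shares cannot be set against those of all genes. Of all 40 tested members, 7 passed in DESeq2 with the block, beside 11.8% of all genes. Of all members 4 passed without pair 1, 3 without pair 2 and 16 without pair 3, beside 8.93%, 5.41% and 30.3% of all genes. Directions are relative to TMM scaling. With scaling by total counts the median of all genes on the log2 scale was 0.10 in place of -0.01, and of the genes called with the block 77.5% were higher in place of 48.7% (2822 higher and 819 lower). Under that scaling the pore had 9 higher and 1 lower call and the receptors 9 higher and 0 lower, beside 21% higher and 6.1% lower of all genes.

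Both basket genes among the members, Nup153 and Nup50, rose, while Tpr, a basket gene outside the symbol rule, was lower in all 3 pairs and did not pass (log2 fold change -0.17, adjusted p = 0.0575). Nup153, an anchor of the basket that binds importins and chromatin, had 174, 145 and 139.9 CPM in MIAT knockdown libraries 1 to 3 and 118, 117 and 103 CPM in Scr control libraries 1 to 3. Every knockdown library was above every control library. Its log2 fold change was 0.44 with the block (SE 0.063, adjusted p = 0.00385), and 0.44 without it (SE 0.11, adjusted p = 0.121). Nup50, a mobile basket protein that helps release cargo from importin alpha, had 70.2, 69.9 and 66.6 CPM in MIAT knockdown and 56.2, 54.0 and 53.1 CPM in Scr control. The groups did not overlap, and the pair differences were close to each other at 0.32, 0.37 and 0.33 on the log2 scale. Nup50 rose 1.27-fold (log2 fold change 0.34, SE 0.060, adjusted p = 0.00712). RefSeq names a pseudogene of Nup50, so some of its reads may be shared. Over all genes, all knockdown libraries lay above all control libraries in 14.2%, and below them in 11.8%. Among tested pore genes 8 of 21 lay above and 1 below, and among tested receptors 5 of 19 above and 1 below.

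In the central channel, 2 of the 3 subunits of the Nup62 complex rose. Nup62, whose repeats fill the channel, had 83.0, 68.7 and 77.5 CPM in MIAT knockdown against 59.6, 64.1 and 55.2 CPM in Scr control. The groups did not overlap, but pair 2 differed by only 0.10 on the log2 scale, against 0.48 and 0.49 in pairs 1 and 3. Its log2 fold change was 0.36 (SE 0.085, adjusted p = 0.0208). Nup54, its partner in the complex, had 48.6, 38.6 and 36.5 CPM in MIAT knockdown against 35.5, 32.7 and 29.8 CPM in Scr control. Library 1 of the knockdown stood well above its other libraries, and the lowest knockdown library was just above the highest control library. Nup54 rose by a log2 fold change of 0.33 (SE 0.074, adjusted p = 0.0166). Nup58, the remaining subunit, did not pass at 49.4 ± 4.80 and 46.0 ± 2.39 CPM (SD, n = 3 each).

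**Figure D2:**
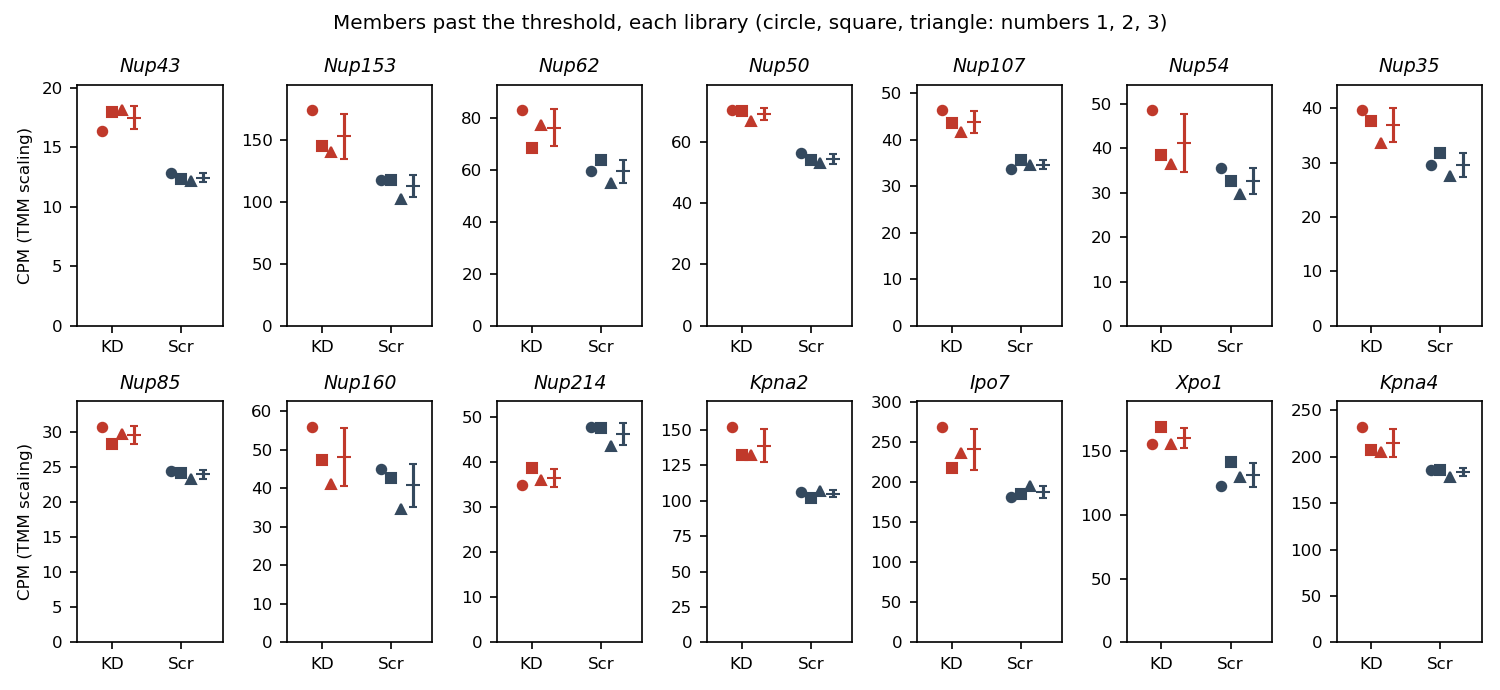
CPM after TMM scaling of the 14 members that passed with the block, each library as a point (circle, square and triangle for numbers 1, 2 and 3) beside the group mean with its SD (n = 3), MIAT knockdown in red at the left and Scr control in dark grey at the right of each panel. Nup214 is the member that is lower in MIAT knockdown, at 34.8 to 38.8 against 43.5 to 47.8 CPM; in Nup160 the groups overlap.

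Of the Y complex, the outer scaffold ring, 4 of 6 tested members rose and 0 fell, with a median log2 fold change of 0.27. Its subunits Sec13 and Ahctf1, outside the symbol rule, did not pass with the block. Sec13 was lower in all 3 pairs (log2 fold change -0.098, adjusted p = 0.235) and Ahctf1 higher in all 3 (0.147, adjusted p = 0.0833). In DESeq2 with the block 0 of the 6 passed, with adjusted p = 0.0545 for Nup43, 0.0567 for Nup107, 0.161 for Nup85 and 0.211 for Nup160. Of these rises, 1 passed without pair 1 (Nup43) and 0 without pair 2. Nup43, a small propeller subunit of this ring, had the largest rise of all members. It stood at 16.4, 18.0 and 18.1 CPM in MIAT knockdown and 12.9, 12.3 and 12.1 CPM in Scr control. The libraries within each group lay close together and the groups did not overlap. Nup43 rose 1.40-fold (log2 fold change 0.49, SE 0.10, adjusted p = 0.0126). Nup107, which gives the complex its other name, had 46.4, 43.6 and 41.7 CPM in MIAT knockdown against 33.8, 35.6 and 34.7 CPM in Scr control, again without overlap. Its log2 fold change was 0.34 (SE 0.072, adjusted p = 0.0139). Nup85 had 30.8, 28.3 and 29.8 CPM in MIAT knockdown against 24.5, 24.2 and 23.3 CPM in Scr control, a rise of 1.23-fold (adjusted p = 0.0263). The groups did not overlap there either.

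Nup160, the largest called subunit of the Y complex by gene length, was the called member whose groups overlapped. It had 55.9, 47.4 and 40.9 CPM in MIAT knockdown and 45.0, 42.6 and 34.5 CPM in Scr control. The level was highest in library 1 and lowest in library 3 of both groups, so the difference shows within pairs, at 0.31, 0.15 and 0.25 on the log2 scale. Its log2 fold change was 0.24, with SE 0.068 and adjusted p = 0.0382 with the block and SE 0.15 and adjusted p = 0.415 without it. The other 2 members of the complex did not pass. Nup133 was at 23.4 ± 2.07 and 24.5 ± 0.786 CPM, and Nup37 at 19.0 ± 2.47 and 17.04 ± 0.871 CPM.

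The promoter of Nup43, the pore gene with the largest called change, is shown as an example of the sequence upstream of a member that rose. It is the RefSeq sequence of GRCr8, chr1:3968216-3968515 on the plus strand, from 250 bases before to 50 bases after the annotated start. Capitals mark matches to CCAAT on either strand, a box bound by the factor NF-Y.
Nup43: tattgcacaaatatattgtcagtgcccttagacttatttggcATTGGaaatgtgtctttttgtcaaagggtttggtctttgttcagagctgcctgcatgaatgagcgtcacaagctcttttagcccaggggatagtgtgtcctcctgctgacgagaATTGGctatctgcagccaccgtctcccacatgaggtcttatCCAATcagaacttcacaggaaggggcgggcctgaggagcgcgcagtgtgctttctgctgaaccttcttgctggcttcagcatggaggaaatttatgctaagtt
The matches begin 208, 94 and 53 bases before the start. The annotation has Pcmt1 overlapping Nup43, and Pcmt1 did not pass at 53.1 ± 2.61 and 47.3 ± 2.89 CPM (log2 fold change 0.17, adjusted p = 0.0942).

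Among the inner ring genes, 1 of 5 tested rose and 0 fell. Nup35, a small subunit that binds the pore membrane, had 39.6, 37.6 and 33.5 CPM in MIAT knockdown against 29.5, 31.8 and 27.5 CPM in Scr control. The groups did not overlap, and the log2 fold change was 0.32 (SE 0.074, adjusted p = 0.0194). The large scaffold subunits lay close to 0. Nup188 was at 65.8 ± 4.36 and 67.6 ± 1.16 CPM, Nup205 at 66.9 ± 3.59 and 68.5 ± 5.14 CPM, Nup93 at 37.2 ± 1.65 and 36.4 ± 0.816 CPM and Nup155 at 27.9 ± 3.05 and 26.6 ± 2.20 CPM in MIAT knockdown and Scr control. Nup98, which links the rings and carries repeats of its own, did not pass either at 123 ± 8.89 and 119 ± 7.20 CPM.

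Of the 2 tested members of the cytoplasmic side, 1 fell and 1 did not pass. Nup214, whose repeats dock the exportin Xpo1 on the cytoplasmic filaments, was the pore gene that fell. It had 34.8, 38.8 and 36.0 CPM in MIAT knockdown and 47.8, 47.5 and 43.5 CPM in Scr control, with every knockdown library below every control library. Its log2 fold change was -0.34 with the block (SE 0.071, adjusted p = 0.0125), and -0.23 with the block and total count scaling (adjusted p = 0.0490). The call ended without pair 1 (adjusted p = 0.0838) and without pair 2 (adjusted p = 0.0817). Nup88, which anchors Nup214 in the pore, had 62.8, 65.3 and 67.5 CPM in MIAT knockdown against 59.0, 66.2 and 69.6 CPM in Scr control. These ranges overlapped nearly whole, with a log2 fold change of 0.01 (SE 0.062, adjusted p = 0.929).

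The low pore genes were measured with less precision. Nup210l, a paralog of Nup210, had 72, 45 and 62 counts in MIAT knockdown libraries 1 to 3 and 139, 97 and 48 counts in Scr control libraries 1 to 3. It was lower in pairs 1 and 2 and higher in pair 3, with a block log2 fold change of -0.68 (SE 0.29, adjusted p = 0.131). Nup210 had 87, 55 and 37 counts in MIAT knockdown and 100, 61 and 16 counts in Scr control, and its pairs also differed in sign. The 11 tested pore genes that did not pass had block log2 fold changes of -0.68, in Nup210l, to 0.15, in Nup37, and 10 of the 11 were within 0.2 of 0.

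**Figure D3:**
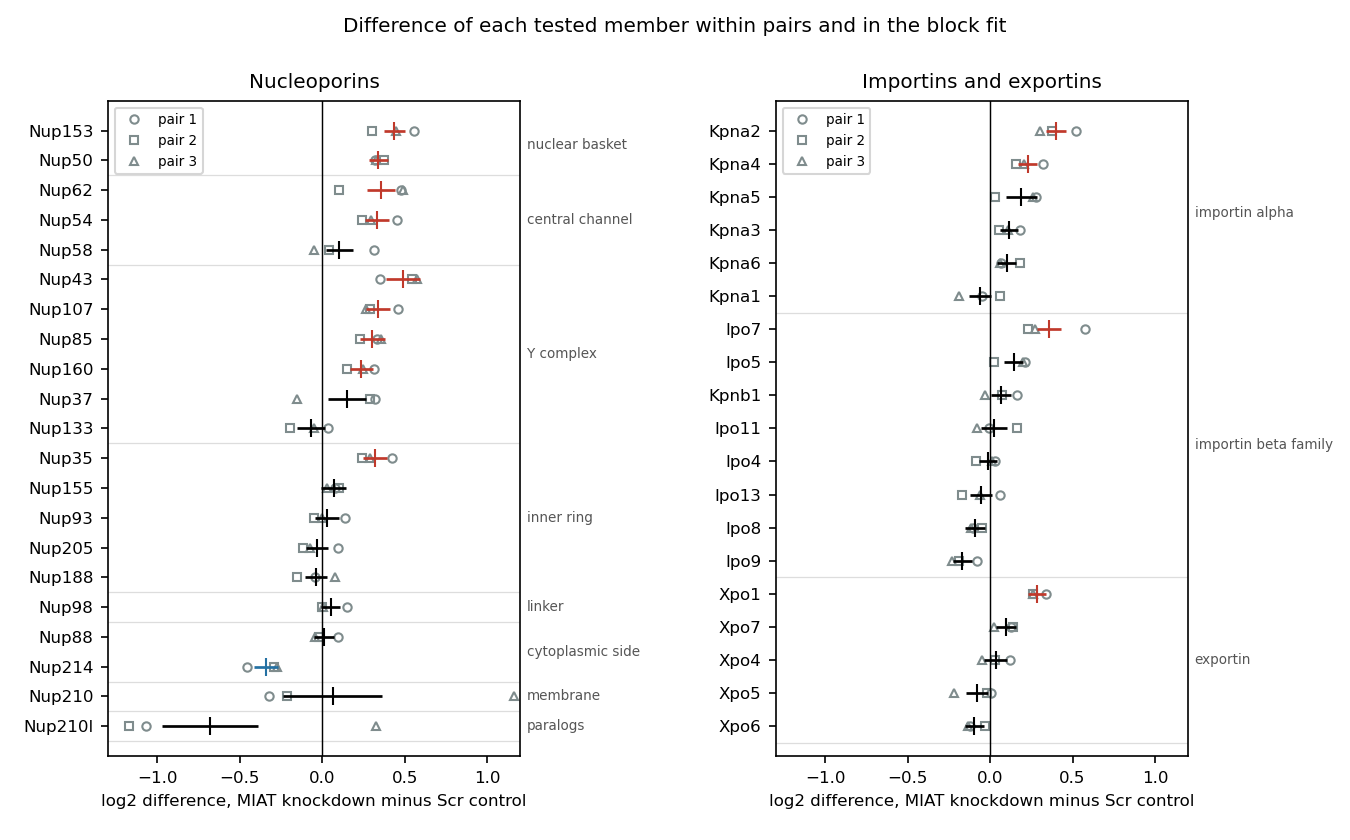
Log2 difference of MIAT knockdown minus Scr control for each tested member, by subcomplex or receptor family, with open symbols for the 3 same-numbered pairs and a tick with its SE for the block fit (red rose, blue fell, black not past the threshold). The called members of the basket, central channel and Y complex lie right of 0 in all pairs, Nup214 lies left of 0 in all pairs, and Nup210 and Nup210l spread over both sides.

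Among transport receptors the rises were 1 or 2 members of each family. Importin alphas, the adaptors that join classical cargo to Kpnb1, had 2 of 6 tested members that rose and 0 that fell, with a median log2 fold change of 0.15. Kpna2 had 152, 132 and 132 CPM in MIAT knockdown and 106, 102 and 107 CPM in Scr control. Every knockdown library was above every control library. It rose 1.32-fold (log2 fold change 0.40, SE 0.061, adjusted p = 0.00432), and with the block this call also passed with each pair left out and in DESeq2. Kpna2 also made up a larger part of the importin alpha FPKM, at 50.3%, 48.5% and 49.2% in MIAT knockdown against 44.1%, 43.8% and 45.4% in Scr control, a share that library scaling does not alter. The size of the share depends on gene length, 1978 bases for Kpna2 and 12551 bases for Kpna4. By CPM Kpna4 was higher than Kpna2 in every library.

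Kpna4, also called importin alpha 3, had 232, 207 and 206 CPM in MIAT knockdown against 186, 186 and 179 CPM in Scr control. Without overlap between the groups, it rose by a log2 fold change of 0.23 (SE 0.057, adjusted p = 0.0247). The call ended in DESeq2 with the block (adjusted p = 0.0643), without pair 1 (adjusted p = 0.188) and without pair 2 (adjusted p = 0.105). Kpna3, Kpna5 and Kpna6 had positive differences in all 3 pairs but did not pass. Kpna6, at 103 ± 2.60 and 95.7 ± 2.16 CPM, had groups that did not overlap, and it passed with the block under total count scaling and under the length correction. Kpna1 was at 80.7 ± 5.58 and 84.2 ± 6.72 CPM. Reads of close copies may be shared, since RefSeq names pseudogenes of Kpna1, Kpna3 and Kpna4 and a further Kpna2-like gene.

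The promoter of Kpna2, the receptor with the largest called change, is the RefSeq sequence of GRCr8, chr10:92445792-92446091 on the minus strand, printed 5′ to 3′ along the gene. Capitals mark CCAAT and, on the opposite strand, TTTGAA, the letters of the cell cycle homology region.
Kpna2: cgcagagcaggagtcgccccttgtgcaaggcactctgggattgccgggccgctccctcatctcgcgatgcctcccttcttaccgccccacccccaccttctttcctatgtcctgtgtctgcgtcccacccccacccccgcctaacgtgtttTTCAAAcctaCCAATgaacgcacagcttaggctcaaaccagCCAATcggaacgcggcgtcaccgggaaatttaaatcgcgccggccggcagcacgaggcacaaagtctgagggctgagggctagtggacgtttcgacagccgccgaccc
CCAAT begins 89 and 58 bases before the annotated start and the reverse of TTTGAA 99 bases before it. RefSeq gave promoters for 37 of the 42 members and 12 of the 13 that rose. CCAAT was in 19 of the 37 (51.4%) and in 5 of the 12 (41.7%), against 37.2% of the promoters of all tested genes, windows of the same 300 bases. TTTGAA was in 21.6% of member promoters against 12.3%, CACGTG, the E-box bound by MYC, in 13.5% against 9.04%, and CGGAAG, an ETS motif, in 32.4% against 29.4%. Both strands were searched and each motif was counted on its own, also where matches share bases. These shares are descriptions and carry no test.

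In the importin beta family 1 of 8 tested members rose and 0 fell, with a median log2 fold change of 0.00. Ipo7, which imports ribosomal proteins and, together with Kpnb1, linker histones, had 269.5, 218 and 237 CPM in MIAT knockdown against 181, 186 and 196 CPM in Scr control. All knockdown libraries were above all control libraries, with pair 1 the farthest apart at 0.57 on the log2 scale. It rose 1.28-fold (log2 fold change 0.36, SE 0.074, adjusted p = 0.0123), and the call ended without pair 1 and without pair 2. RefSeq names a pair of Ipo7 pseudogenes.

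Kpnb1, the most abundant receptor, had 472, 510.0 and 449 CPM in MIAT knockdown and 421, 486 and 459 CPM in Scr control. The groups overlapped, and the log2 fold change was 0.07 (SE 0.059, adjusted p = 0.450), and 0.17 with the block and total count scaling (adjusted p = 0.0458). Ipo5 had 472, 442 and 408 CPM in MIAT knockdown against 409, 435 and 356 CPM in Scr control, higher in 3 of 3 pairs with a log2 fold change of 0.14 (SE 0.060, adjusted p = 0.123). With the block and total count scaling Ipo5 also passed (log2 fold change 0.25, adjusted p = 0.0214). Ipo9, an importer of core histones, was lower in all 3 pairs, at 171 ± 8.73 and 192 ± 12.1 CPM, and the groups did not overlap. Its log2 fold change of -0.17 did not pass (SE 0.056, adjusted p = 0.0645). Ipo4, an importer of histones and ribosomal proteins, was at 123 ± 2.62 and 124 ± 3.16 CPM, and Ipo8, Ipo11 and Ipo13 also did not pass.

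Of the 5 exportins 1 rose and 0 fell. Xpo1, also known as CRM1, the general exporter of proteins with a leucine-rich signal and of ribosomal subunits, had 155, 169 and 156 CPM in MIAT knockdown against 123, 141 and 130.1 CPM in Scr control. The groups did not overlap, and the pair differences were 0.34, 0.26 and 0.26 on the log2 scale. Xpo1 rose 1.22-fold (log2 fold change 0.29, SE 0.053, adjusted p = 0.00876). Its call ended without pair 1 and without pair 2. Xpo5, which exports precursors of microRNAs, was at 61.8 ± 1.90 and 65.3 ± 3.65 CPM, and Xpo6, the exporter of actin, at 90.8 ± 6.05 and 96.9 ± 5.995 CPM. Xpo4 and Xpo7 did not pass either. All 15 tested receptors that did not pass had block log2 fold changes within 0.2 of 0, from -0.17 in Ipo9 to 0.19 in Kpna5.

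Summed over its members, the pore class took 1102, 1021 and 984 CPM in MIAT knockdown against 932, 962 and 884 CPM in Scr control. The receptor class took 2807, 2719 and 2601 CPM in MIAT knockdown against 2466, 2588 and 2491 CPM in Scr control. In both classes every knockdown library was above every control library, in the receptors by a narrow margin. The sums are not a result for each member, since abundant members weigh most. Nup153 alone had a mean of 153 CPM in MIAT knockdown and 113 CPM in Scr control. With the block 11 of 21 tested pore genes and 15 of 19 tested receptors did not pass.

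Other genes of the same machinery were read from lists chosen by function. Of 11 tested pore proteins with other symbols, among them Ranbp2, Tpr and Ahctf1, 0 rose and 0 fell with the block, with a median log2 fold change of 0.05. At an unadjusted p under 0.05 in the fit without the block there was 1. Tpr, the filament of the basket that Nup153 anchors, was at 156 ± 8.09 CPM in MIAT knockdown and 176 ± 1.85 CPM in Scr control, without overlap. Of 9 tested transport receptors with other symbols, 1 rose and 0 fell. That gene was Nxt1, the partner of the mRNA exporter Nxf1, at 19.7 ± 0.898 and 13.3 ± 0.0731 CPM (log2 fold change 0.57, adjusted p = 0.00609). Nxf1 itself was at 100.4 ± 2.96 and 109 ± 5.74 CPM and did not pass.

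The Ran cycle had 4 of 6 tested genes that rose and 0 that fell, beside 10.5% and 11.1% of all genes, with a median log2 fold change of 0.27. Without the block 0 of the 6 passed, and 3 had an unadjusted p under 0.05, beside 19.2% of all genes. Ranbp1, which promotes GTP hydrolysis by Ran, had 133, 129.8 and 134 CPM in MIAT knockdown against 87.0, 94.7 and 85.6 CPM in Scr control, a wide gap between the groups. It rose 1.49-fold (log2 fold change 0.57, SE 0.060, adjusted p = 0.00166). Ran rose 1.21-fold, Rcc1, its chromatin-bound exchange factor, 1.27-fold and Rangap1, its cytoplasmic GTPase activator, 1.17-fold (adjusted p = 0.0118, 0.0118 and 0.0441). The groups overlapped in Rangap1, at 165, 162 and 130 CPM in MIAT knockdown and 143, 152 and 100 CPM in Scr control. Its adjusted p without the block was 0.557.

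Of 11 tested genes of the nuclear lamina and envelope, 5 rose and 2 fell, beside 10.5% and 11.1% of all genes, with a median log2 fold change of 0.15. Without the block 0 of the 11 passed, and 5 had an unadjusted p under 0.05, beside 19.2% of all genes. Lmnb1, which encodes lamin B1, rose 1.41-fold to 66.1 ± 4.11 CPM in MIAT knockdown, against 46.9 ± 5.87 CPM in Scr control (adjusted p = 0.00401). Tmpo, a lamina-associated protein gene, rose 1.32-fold. Syne1, which encodes a nesprin of the envelope, fell by a log2 fold change of 0.43 (adjusted p = 0.00792) and Sun2, its partner in the envelope, by 0.19 (adjusted p = 0.0326). In Sun2 the groups overlapped, at 119 to 145 CPM in MIAT knockdown and 136 to 166 CPM in Scr control. Without the block its adjusted p was 0.395.

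**Figure D4:**
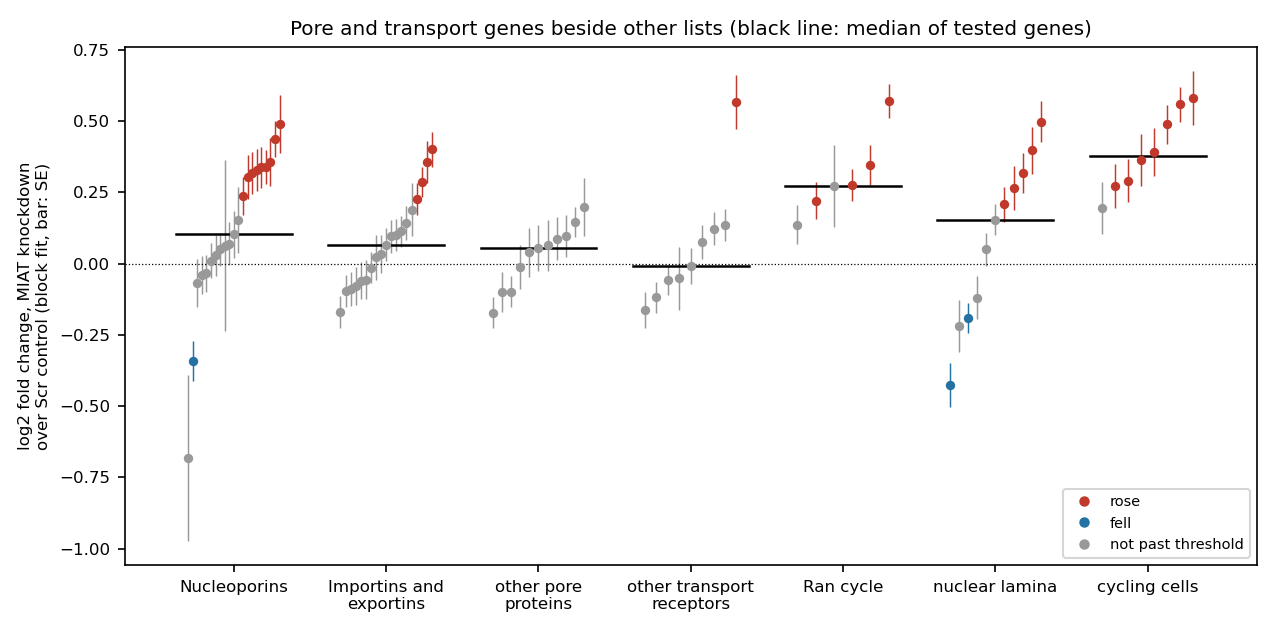
Block log2 fold change of MIAT knockdown over Scr control with its SE for every tested gene of the pore and receptor classes, of 4 lists of related genes and of the markers of cycling cells, with a black line at each median. The medians are 0.10 for nucleoporins, 0.07 for importins and exportins, 0.05 for other pore proteins, -0.01 for other transport receptors, 0.27 for the Ran cycle, 0.15 for the nuclear lamina and 0.38 for cycling cells.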

How the data were processed

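The authors deposited raw counts, given as integers for each gene symbol, and FPKM values. Recomputing the deposited FPKM from the counts, 1 length for each gene and the library totals matched 100% of the values above 0 within a relative tolerance of 1e-06. How reads were aligned and counted, with which strand setting, annotation and genome build, is not given in the sources used here. Without a strand setting, reads of overlapping genes cannot be told apart: 8 members overlap a coding gene in RefSeq's GRCr8 annotation, in which all 42 symbols matched. Nup62 overlaps Atf5 and Il4i1, and Nup35 overlaps Dusp19. None of these neighbours passed with the block. RefSeq also names copies of 11 members, among them a Nup160-like gene and pseudogenes of Nup35 and Ipo5. Reads of these genes and their copies may be shared too. Sequences were taken from RefSeq GRCr8.

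Counts were fitted with edgeR 4.0.16 in R 4.3.3 (TMM, filterByExpr, quasi-likelihood test, Benjamini-Hochberg over 13423 genes, threshold 0.05), first without a covariate, then with the replicate number as a block. The numbers come from the titles. Same-numbered libraries correlated at 0.68, 0.52 and 0.58 after removal of group means, which was checked before calls were compared, and no label states the pairing. The residual degrees of freedom were 4 without and 2 with the block. Fold changes are fitted without a prior count and SEs follow from the F statistic. The steps were tested on simulated counts, into which a deviation shared by same-numbered libraries was built. That run therefore cannot show whether the libraries here are paired. No label says whether the libraries are separate cultures. The p-values then measure only the spread between these libraries, and that spread may be technical. DESeq2 1.42.0, limma 3.58.1, other scalings and filters, a length correction and left-out libraries were the alternatives. Members and lists were chosen with earlier results of these data known. Called members and the 3 most abundant of each class by FPKM are given in full.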

Additional observations from a re-analysis of the deposited data

How the results depend on the processing

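Without the block, 0 genes, 0 pore genes and 0 receptors passed in edgeR with DESeq2 size factors, total counts, either other filter or any library left out, and in limma-voom or limma on log2(FPKM + 1) and log2(FPKM + 0.1). DESeq2 called 699, 5 and 2. With the replicate block the counts of all genes, pore genes and receptors were 2898, 10 and 4 in edgeR, 1590, 4 and 3 in DESeq2, 3641, 10 and 9 with total counts, 2961, 10 and 4 with DESeq2 size factors, 3128, 10 and 4 with no filter, 2601, 10 and 5 with the length correction, and 736 to 4124 (1195 without pair 1), 2 to 12 and 1 to 4 with a pair left out. The other 26 tested members are those that passed neither without nor with the block in the main edgeR fits. The spread of a class median was its SD over the 3 knockdown libraries, each set against the control mean. By more than this the receptor median moved from 0.066 to 0.173 and 0.175 in limma on FPKM with 1 and 0.1 added. It was 0.174 with total counts without and with the block, 0.0897 and 0.0911 with no filter and 0.143 with the length correction. It was 0.0419 without pair 1, 0.112 without pair 3 and 0.0457 without Scr control library 1. The cause of these moves was not tested. The receptor median stayed within that spread without pair 2 and with each other library left out, where the highest value was 0.0834. The pore median stayed within its own spread, at 0.062 to 0.214. With total counts without the block it went from 0.106 to 0.214, so the classes were held to unlike spreads. Nup88 changed sign to -0.0033 in DESeq2 and -0.0031 with its size factors, with the block to -0.00079, -0.00093 and, with the length correction, -0.027, and to -0.027 without pair 1, and lay at -0.060 to 0.059 with single libraries left out. Of 23 other tested members with no call, 14 changed sign under some setting and 5 passed under some setting, as did Kpnb1 and Ipo5 with the block and total counts. Precision is limited by 3 libraries a group.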
